A study of Rattus norvegicus with 40 samples.

Results

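T cells taken from the kidneys of SS/CRL rats on high-salt chow were compared with those of SS/CRL rats on low-salt chow, which uses 8 of the 40 libraries of the series. The SS rat is the Dahl salt-sensitive rat, an inbred strain whose blood pressure rises on a high-salt diet, and SS/CRL and SS/MCW are the rat types named in the labels. The low-salt group (LS) and the high-salt group (HS, 3 weeks) were both sampled at 10 weeks of age, and the labels name no genetic change and no drug in either. Each group held 4 libraries, and the RNA source of a library was 3 rats pooled. All 31677 gene models of the deposited table of this comparison were taken, of which the authors tested 20501. Their values are FPKM, fragment counts scaled by transcript length and by sequencing depth, with 1 value per group. No spread among the 4 pools can therefore be printed, the depth of the libraries is unknown, and whether 1 pool carries a difference was not tested. Below, a gene rose or fell where q lay under 0.05 with status OK in the authors' deposited table. Each log2 fold change of high over low salt is given with a standard error (SE), its size divided by the deposited test statistic. A value in parentheses beside an SE is such a log2 fold change, and paired FPKM values give low salt first.

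As background, the proximal tubule is the first segment of the nephron and takes back most filtered glucose, amino acids, phosphate and bicarbonate, and its basolateral organic ion transporters move drugs and metabolites from blood to urine. The segments after it dilute and concentrate the urine under the control of vasopressin and aldosterone, and cells of the medulla store organic osmolytes against the salty fluid around them. T cells recognise antigen through the T cell receptor and its CD3 chains, and they gather in the kidney in salt-sensitive hypertension.

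The RNA of these libraries held T cell transcripts beside abundant nephron transcripts. In tables that compared both tissues directly, Cd3e, a CD3 chain gene, stood at 24.2 FPKM in kidney and 739.8 FPKM in circulating cells on low salt, and at 20.5 and 822 FPKM on high salt. Ptprc, the leukocyte phosphatase gene CD45, stood at 11.6 and 751 FPKM on low salt and at 7.85 and 699.7 FPKM on high salt. Slc34a1, the main phosphate transporter gene of the proximal tubule, stood at 2989 FPKM in kidney and 0.0321 FPKM in circulating cells on low salt. The T cell markers were thus present in the kidney libraries, far below their level in circulating cells, while Slc34a1 was near 0 in circulating cells. Umod, a gene of the thick ascending limb, stood at 1380 FPKM in kidney and 2.15 FPKM in circulating cells on high salt. In these bulk samples fewer cells of a type and less RNA per cell cannot be told apart.

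Across all tested gene models, 500 rose on high salt, 2.44% of those tested, and 630 fell, 3.07%. The calls leaned further toward falls once gene models listed at 0 in a group were set aside, which left 240 rises and 586 falls and moved the share of rises from 44.2% to 29.1%. The falls were also larger, with a median log2 fold change of -1.25 against 0.85 for the rises, and 398 falls but 68 rises reached 1 on the log2 scale. Falls grew more frequent with expression. Among the 1449 gene models with 100 FPKM or more in either group, 4.14% rose and 14.1% fell. The calls rest on the deposited p-values. A normal p from the deposited test statistic, with Benjamini-Hochberg adjustment, gave 17 gene models in place of 1130, all with the lower value on high salt, among them Slc34a3, Amn, Abcc6, Prima1, Hba1 and Hba2. MSTRG.59259, without a symbol, was also among the 17 but was not called (log2 fold change -0.22, SE 0.005). The list counts below are read against these shares, 2.44% and 3.07% of all tested gene models and 4.14% and 14.1% of highly expressed ones. The log2 fold changes had little common offset, with a median of 0.05 over 19463 gene models.

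**Figure D1:**
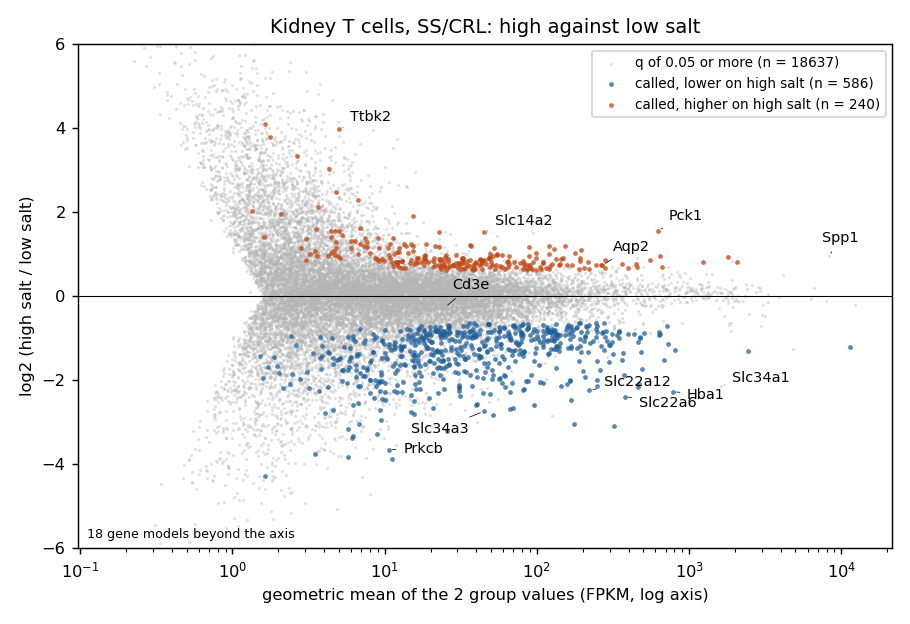
Each point is 1 of 19463 tested gene models, placed by its expression over both groups (FPKM, log axis) and its log2 ratio of high over low salt. Blue points fell (n = 586) and red points rose (n = 240), with the falls reaching further among highly expressed genes, and 18 gene models lie beyond the axis.

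Many proximal tubule transporters fell on high salt. Of 39 tested members of the apical and basolateral lists, 22 fell, none rose and 17 did not pass, a share of 56.4% against 3.07% of all gene models and 14.1% of those with 100 FPKM or more. The called members were between 1.72-fold and 6.70-fold lower on high salt, and 7 of them were at least 4-fold lower. The median log2 fold change was -1.04 over 41 members with a level, 36 of which lay below 0.

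Of 25 tested members of the apical list, 13 fell. Apical transporters bring filtered solutes into the cell from the tubule lumen. Slc34a3, a phosphate transporter gene (chromosome 3 from 2429662 to 2435216, build rn5), fell from 116 to 17.3 FPKM (log2 fold change -2.75, SE 0.49), with q = 0.00171 in the authors' deposited table. The urate transporter gene Slc22a12 fell from 479.7 to 102 FPKM (-2.24, SE 0.59). Both also stand among the list's largest changes relative to their SE.

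The glucose transporter gene Slc5a2 (SGLT2) fell from 65.9 to 14.5 FPKM (-2.19, SE 0.97). Its gene model spans the same interval as another (chromosome 1 from 206728634 to 206763393), so its reads may be shared. The sulfate transporter gene Slc13a1 fell from 121 to 28.6 FPKM. Amino acid carriers also fell. The neutral amino acid transporter gene Slc6a19 fell from 42.3 to 12.8 FPKM, and the cystine transporter pair Slc7a9 and Slc3a1 fell from 176 to 47.9 FPKM and from 588 to 228 FPKM. The gene model named RGD1566368,Slc6a20, which does not separate its 2 symbols, fell from 40.6 to 14.2 FPKM.

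The remaining falls of the list were Slc17a3 (176 to 43.5 FPKM) and Slc17a1 (37.5 to 13.3), anion carriers, Slc22a5 (129 to 52.3), the carnitine transporter, Slc5a12 (17.9 to 7.45), a lactate carrier, and Slc13a3 (172 to 83.9), a dicarboxylate carrier. Slc13a3 is known as a basolateral carrier, although the list holds it. Slc34a1 was the most abundant member at 3387 and 773 FPKM, yet with a log2 fold change of -2.13 and an SE of 1.48 it did not pass, with q = 0.110 in the authors' deposited table. Slc5a1 (SGLT1), at 3.96 and 2.84 FPKM, and the sodium-proton exchanger gene Slc9a3, at 20.9 and 18.8 FPKM, had lower values on high salt and did not pass. Slc15a2, a peptide transporter, had the higher value on high salt, at 6.87 and 12.5 FPKM, and did not pass.

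Of 14 tested members of the basolateral list, meant for carriers that face the blood, 9 fell and none rose. The list also holds Slc13a2 (39.3 to 19.4 FPKM) and Slc47a1 (76.2 to 42.2 FPKM), which fell and are known as apical carriers, so its count is not one of blood-facing transporters alone. Slc22a6, the organic anion transporter OAT1 (chromosome 1 from 231761612 to 231774615), fell from 863 to 164 FPKM (-2.39, SE 0.69). Its relative Slc22a8 (OAT3) fell from 245 to 103 FPKM, and the cation transporter gene Slc22a2 (OCT2), at 64.0 and 48.1 FPKM, did not pass. The organic ion carriers thus ranged from large falls to no call. Slc27a2, which takes up fatty acids, fell from 242 to 74.0 FPKM. Slc4a4, the sodium-bicarbonate cotransporter gene, fell from 22.2 to 12.9 FPKM (-0.78, SE 0.42), the smallest called change of the transporters. Slc2a2, the glucose carrier GLUT2, did not pass at 10.6 and 11.6 FPKM.

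The starts of these genes were read for letters of a factor known to bind proximal tubule promoters. RefSeq promoters (build GRCr8, 250 bases before the start to 50 after it) were found for 18 of the 22 fallen transporters. The letters CAAAGTCCA, part of the HNF4 motif, were looked for on both strands. Only Slc3a1 held them, and its promoter is shown because the gene of that factor is described next. It is written 5′ to 3′ on the gene's own strand, with the letters found in capitals.
Slc3a1 (chr6:15394700-15394999, - strand): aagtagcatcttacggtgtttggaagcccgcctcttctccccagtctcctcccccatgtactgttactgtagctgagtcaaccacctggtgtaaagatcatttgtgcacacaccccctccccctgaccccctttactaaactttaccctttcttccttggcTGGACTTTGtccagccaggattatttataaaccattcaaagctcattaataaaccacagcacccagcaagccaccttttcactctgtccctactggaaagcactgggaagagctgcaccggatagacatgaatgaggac
The capitals begin at -89 from the start and hold the letters on the opposite strand. Over 306 fallen genes with a promoter, 4 held CAAAGTCCA, or 1.31%, and of 147 risen genes 1 did, or 0.680%. The share was 0.374% of 8294 tested genes with a symbol and 0.375% of all 27457 promoters. Letters of other motifs were also counted, of which only TGGAAA is reported, further below. A match is a description of letters, not of binding.

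Of 12 proximal tubule transcription factors 3 fell and none rose. Hnf4a fell from 679 to 338 FPKM (-1.01, SE 0.53) and Maf from 156 to 60.5 FPKM (-1.36, SE 0.53). The median of the list was 0.10, so the list as a whole did not lie below all gene models.

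Among brush border and endocytosis genes 4 of 18 tested fell and none rose, with a median log2 fold change of -0.41. Amn, which carries the cubilin receptor to the surface, fell from 175 to 37.2 FPKM (-2.23, SE 0.46). The scaffold gene Pdzk1 fell from 486 to 244 FPKM, Tmem27 (collectrin) from 307 to 195 FPKM and the cadherin gene Cdhr2 from 5.81 to 2.55 FPKM. Cubn, cubilin itself, did not pass at 50.3 and 42.0 FPKM. Aqp1, the water channel of the proximal tubule and thin limb, did not pass at 1421 and 2545 FPKM, the higher value being on high salt.

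Of 15 tested genes of gluconeogenesis and glucose handling 6 fell and 1 rose, with a median of -0.65. Slc37a4, the glucose 6-phosphate carrier, fell from 130.2 to 51.6 FPKM, Khk, ketohexokinase, from 673 to 317 FPKM, Sord, sorbitol dehydrogenase, from 293 to 140.1 FPKM, and Fbp1, fructose bisphosphatase, from 918 to 560.3 FPKM. Pc, pyruvate carboxylase, and Gpt, alanine aminotransferase, were the other falls. Pck1, phosphoenolpyruvate carboxykinase (chromosome 3 from 177278782 to 177284731), was the exception and rose from 364 to 1071 FPKM (1.56, SE 0.59).

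Amino acid metabolism leaned the same way. Of 33 tested genes 12 fell and 1 rose, and 28 lay below 0, with a median of -0.63. The proline dehydrogenase gene Prodh fell from 93.2 to 27.6 FPKM and its relative Prodh2 from 325 to 110.3 FPKM. Miox, which degrades inositol, fell from 3855 to 1554 FPKM (-1.31, SE 0.62). The arginine-making pair Ass1 and Asl fell from 664 to 338 FPKM and from 256 to 109 FPKM, and Hpd and Fah, of tyrosine breakdown, from 1257 to 517 FPKM and from 389 to 199 FPKM. Bhmt, a methyltransferase that uses betaine, rose from 18.2 to 35.5 FPKM. Glud1, glutamate dehydrogenase, did not pass at 179.7 and 214 FPKM.

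Drug metabolism genes included 11 falls and 1 rise among 33 tested, with a median of -0.39, beside falls of 3.07% over all gene models and 14.1% over highly expressed ones. Akr1c1, an aldo-keto reductase gene, fell from 235 to 38.8 FPKM (-2.60, SE 0.73). The epoxygenase gene Cyp2c23 fell from 334 to 185 FPKM and Cyp2e1 from 89.4 to 48.0 FPKM. The gene model named Cyp4a2,Cyp4a8,Cyp4b1 fell from 1077 to 488 FPKM and does not separate its genes. Ugt8, a glycolipid-making enzyme, rose from 27.3 to 49.0 FPKM.

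None of 46 tested respiratory chain genes passed, with a median log2 fold change of 0.08. Of 23 genes of the citric acid cycle list 1 fell, Idh1, from 236 to 142 FPKM, which encodes the cytosolic and peroxisomal enzyme and not that of the cycle. Of 29 fatty acid oxidation genes 3 fell and 1 rose, with a median of -0.18. The falls were Acsm2a (224 to 119 FPKM), Acaa1a (162 to 89.2) and Ehhadh (30.0 to 16.7). In glycolysis 4 of 17 tested genes rose and none fell, with a median of 0.31. Pfkfb3, which makes the activator of phosphofructokinase, rose from 13.2 to 25.7 FPKM, Slc2a1, the glucose carrier GLUT1, from 29.9 to 51.5, Hk1, hexokinase, from 50.3 to 85.0, and Pkm, pyruvate kinase, from 222 to 354 FPKM.

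**Figure D2:**
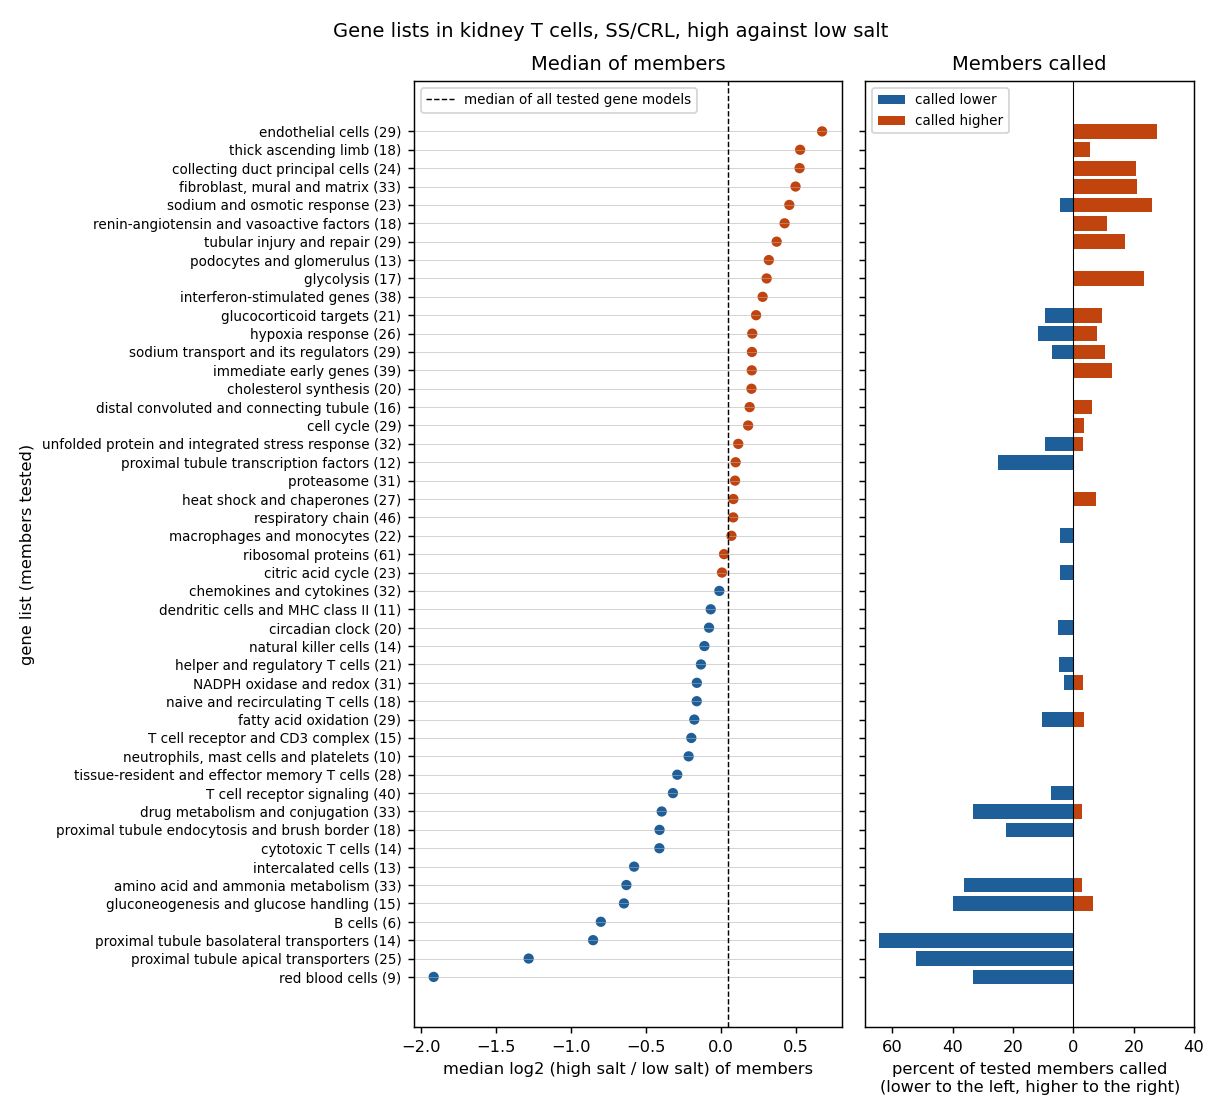
Each line is a gene list. The left panel gives the median log2 ratio of high over low salt of its members, with a dashed line at the median of all gene models, and the right panel gives the percent of tested members that fell (blue) or rose (red). The lowest medians belong to red blood cell genes (-1.92) and apical transporters (-1.28), and the endothelial median is 0.68.

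In the segments after the proximal tubule most values lay above 0. All 18 thick ascending limb genes with a level did, with a median log2 fold change of 0.53, although 1 of them rose, Ppp1r1b (DARPP-32), from 34.8 to 77.6 FPKM. Umod, the uromodulin gene of that segment, did not pass at 1069.8 and 1539.9 FPKM, nor did Kcnj1, the potassium channel ROMK, at 54.5 and 98.3 FPKM. In the distal convoluted and connecting tubule 1 of 16 rose, the kinase gene Stk39 (SPAK), from 21.0 to 34.3 FPKM. The sodium chloride cotransporter gene Slc12a3 did not pass at 19.7 and 27.3 FPKM.

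Of 24 tested collecting duct principal cell genes 5 rose and none fell, with a median of 0.53, beside 2.44% of all gene models that rose. Slc14a2, the urea transporter gene, rose from 26.5 to 76.3 FPKM (1.52, SE 0.51). Aqp2, the vasopressin-regulated water channel, rose from 209 to 346 FPKM (0.73, SE 0.41). The authors' gene model of Aqp2 lies on chromosome X, while RefSeq places the gene on chromosome 7 in build GRCr8. Hsd11b2, which shields the mineralocorticoid receptor from corticosterone, rose from 70.1 to 116 FPKM, Mal from 99.3 to 182 and Wfdc2 from 175 to 275 FPKM. Aqp3, the basolateral water channel, did not pass at 45.5 and 67.4 FPKM.

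None of 13 tested genes of the neighbouring intercalated cells, which secrete acid or base, passed, 11 of 16 with a level lay below 0, and the median was -0.58. Atp6v1g3, a proton pump subunit gene, stood at 45.6 and 22.1 FPKM, and Car2, carbonic anhydrase, at 397 and 519 FPKM.

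Genes of the response to sodium and osmolarity rose in 6 of 23 cases and 1 fell, with 21 above 0 and a median of 0.46. Akr1b1, aldose reductase, which makes the osmolyte sorbitol (chromosome 4 from 61426189 to 61440279), rose from 39.0 to 76.8 FPKM (0.98, SE 0.45). The carriers of the osmolytes betaine and taurine, Slc6a12 and Slc6a6, rose from 19.0 to 35.2 FPKM and from 50.6 to 81.5 FPKM. The small heat shock genes Cryab and Hspb1 rose from 1302 to 2472 FPKM and from 95.9 to 164 FPKM, and the sodium pump subunit gene Atp1b3 from 107 to 179 FPKM. Nfat5, the factor known to drive osmolyte genes, did not pass at 40.3 and 55.3 FPKM. Sgk1, a kinase induced by corticosteroids (chromosome 1 from 25652754 to 25660738), fell from 154 to 72.0 FPKM (-1.10, SE 0.41). The letters TGGAAA, part of the tonicity element that NFAT5 binds, stood on either strand in 2 of the 4 risen osmotic genes with a RefSeq promoter, in 13.6% of all 147 risen genes, 16.7% of the 18 fallen transporters, 15.9% of tested genes and 22.4% of all promoters.

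**Figure D3:**
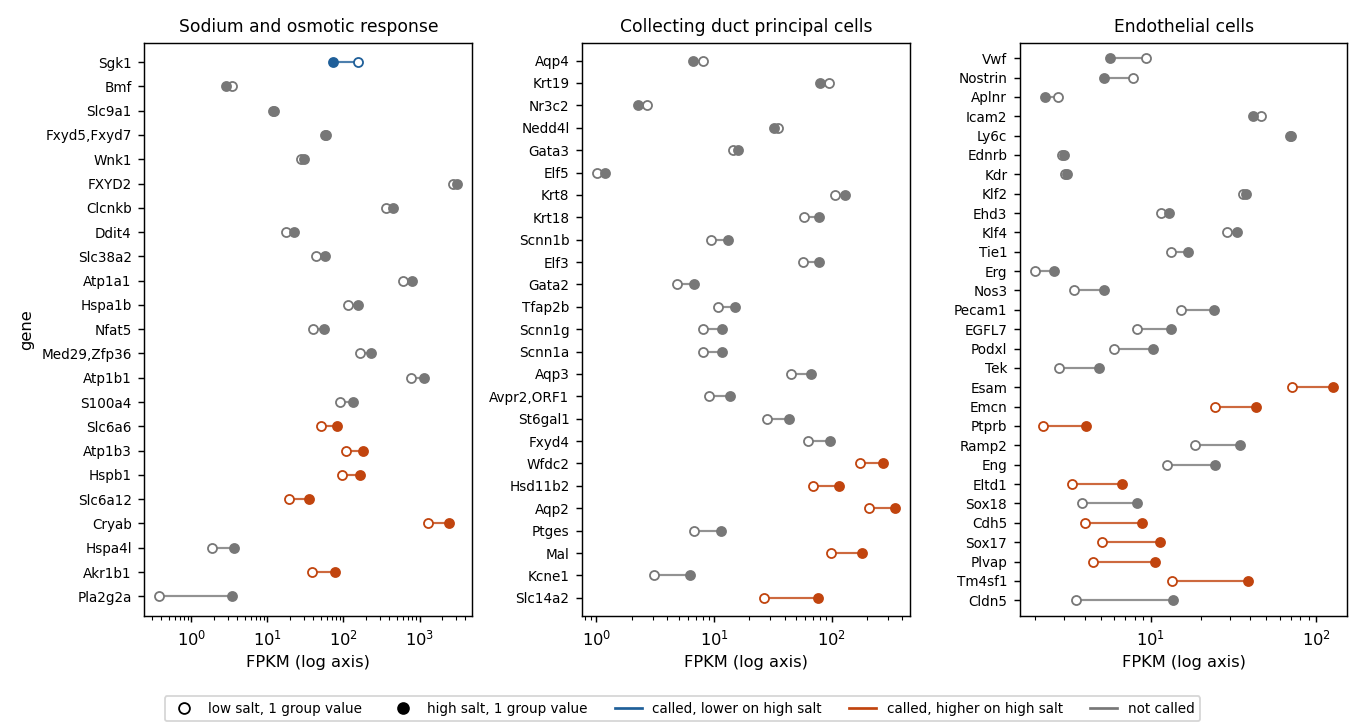
Open circles give the low-salt and filled circles the high-salt group value (FPKM, log axis) of genes of the sodium and osmotic response, of collecting duct principal cells and of endothelial cells. Red lines mark genes that rose, blue the fall of Sgk1 and grey genes that did not pass.

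Of 29 tested endothelial genes 8 rose and none fell, with a median of 0.68, beside 2.44% of all gene models that rose. Tm4sf1, a surface protein of endothelium (chromosome 2 from 166792814 to 166802011), rose from 13.4 to 38.5 FPKM (1.52, SE 0.50). Esam, an adhesion molecule, rose from 71.2 to 125 FPKM, Emcn, endomucin, from 24.3 to 43.4, Plvap, of the diaphragms of fenestrated capillaries, from 4.48 to 10.7, and the junction gene Cdh5 (VE-cadherin) from 4.00 to 8.88 FPKM. Sox17, Ptprb and Eltd1 were the other risers. Vwf, von Willebrand factor, stood at 9.41 and 5.70 FPKM and Pecam1, CD31, at 15.3 and 24.0 FPKM, and neither passed.

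Of 33 tested fibroblast, mural and matrix genes 7 rose and none fell, with 30 of 35 above 0 and a median of 0.50. Bgn, biglycan, rose from 134 to 285 FPKM. The authors' gene model of Bgn lies on chromosome 1, while RefSeq places the gene on chromosome X in build GRCr8. The thrombospondin genes Thbs2 and Thbs1 rose from 2.04 to 6.16 and from 82.8 to 145 FPKM. Vim, the filament gene vimentin, rose from 203 to 338 and Sparc from 90.2 to 144 FPKM. Spp1, osteopontin, had the highest mean of all genes with a symbol, and its high-salt value was the larger. It stood at 5981 and 11493 FPKM and did not pass (0.94, SE 1.74), with q = 0.688 in the authors' deposited table.

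Among tubular injury genes 5 of 29 rose and none fell, with a median of 0.37. Lcn2, the lipocalin NGAL, rose from 85.5 to 170.2 FPKM (0.99, SE 0.43), Cd24 from 460.4 to 894, S100a6 from 931 to 1642 and S100a11 from 1559.5 to 2723 FPKM. Vim was the fifth. Havcr1, the proximal tubule injury marker KIM-1, did not pass at 5.46 and 6.84 FPKM.

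Immediate early genes, which react within minutes to stimulation, cell isolation included, rose in 5 of 39 cases, beside 2.44% of all gene models and 4.14% of highly expressed ones. These were Egr1 (49.9 to 77.3 FPKM), Junb (123 to 205), Rhob (162 to 257), Socs3 (81.8 to 133) and Gadd45b (33.8 to 60.8). Fos did not pass at 255 and 356 FPKM. Their part in the other results was not tested. Of 26 hypoxia genes 3 fell, Ankrd37 (40.1 to 12.3 FPKM), Car12 (275 to 136) and Ndrg1 (879 to 473), and 2 rose, Slc2a1 and Pfkfb3, which are also glycolysis genes. Over all gene models 3.07% fell and 2.44% rose, and 14.1% fell among those of at least 100 FPKM, where Car12 and Ndrg1 stand. Of 32 unfolded protein and stress response genes 3 fell and 1 rose, the one written NUPR1, from 68.9 to 139.8 FPKM. Of 18 vasoactive genes 2 rose, Ptgs1, a cyclooxygenase gene (9.67 to 23.0 FPKM), and the prorenin receptor gene Atp6ap2 (73.8 to 116 FPKM). Of 31 tested NADPH oxidase and redox genes 1 fell and 1 rose, with a median of -0.16, near the shares over all gene models. Nox4, the kidney NADPH oxidase, fell from 26.8 to 12.4 FPKM, and Nqo1, a quinone reductase, rose from 3.94 to 12.1 FPKM.

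None of the 15 tested T cell receptor and CD3 complex genes passed, with a median log2 fold change of -0.20, and their summed level was 283 FPKM on low salt and 264 FPKM on high salt. Cd3e stood at 27.3 and 22.6 FPKM (-0.27, SE 0.57), Cd8a at 49.4 and 40.3, Cd4 at 5.28 and 4.68 and Ptprc at 13.1 and 8.61 FPKM (-0.61, SE 0.54). All 4 had the lower value on high salt, and none passed. The list as a whole was more evenly split, with 8 of 18 members above 0 and 10 below.

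Among 40 tested T cell receptor signaling genes 3 fell and none rose. Their median was -0.32, and 30 of 41 with a level lay below 0. Over all gene models 3.07% fell, and 5.83% of those with 20 to 100 FPKM in the higher group. Prkcb, protein kinase C beta (chromosome 1 from 199295066 to 199639159), fell from 37.8 to 3.00 FPKM (-3.65, SE 1.02), the largest fall among called genes with a symbol and 5 FPKM or more in either group. In circulating SS/CRL cells it stood at 59.0 and 61.5 FPKM on low and high salt. Where both tissues were compared directly on low salt, Prkcb stood at 34.1 FPKM in kidney and 64.8 FPKM in circulating cells. Cd3e stood there at 24.2 and 739.8 FPKM. Which cells of the kidney libraries held Prkcb was not tested. Dgka, a diacylglycerol kinase, fell from 67.9 to 30.0 FPKM and Lat, an adaptor of the receptor, from 100.2 to 57.3 FPKM. Coro1a, an actin regulator of leukocytes, did not pass at 95.2 and 76.3 FPKM. None of the 14 tested cytotoxic, 18 naive or 28 resident memory genes passed, with medians of -0.41, -0.16 and -0.29. Among 21 tested helper and regulatory genes 1 fell, Maf, which the proximal tubule list also holds.

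Markers of other leukocytes were read beside these. The summed level of the macrophage list was 811 FPKM on low salt and 628 FPKM on high salt, with Apoe, which other cells also make, the only fall of 22 (381 to 213 FPKM). Apoe alone held 381 and 213 FPKM of these sums. Csf1r, the macrophage growth factor receptor, stood at 22.7 and 12.5 FPKM and did not pass. The 23 macrophage genes with a level were split, with 13 above 0 and 10 below, and their median was 0.07. None of 11 dendritic cell and MHC class II, 6 B cell, 14 natural killer cell or 10 neutrophil, mast cell and platelet genes passed. The B cell sum was 70.8 and 58.4 FPKM. The part of cell mixture in any value was not tested.

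Red blood cell genes had a median of -1.92 over 9 genes, and 3 fell. Hba1, an alpha globin gene (chromosome 10 from 15497885 to 15498744), fell from 1716 to 355 FPKM (-2.28, SE 0.49), Hba2 from 977 to 217 and the model named Hbb,Hbb-b1 from 403 to 107 FPKM. Alas2, the heme enzyme of red cell precursors, did not pass at 7.04 and 1.46 FPKM. The near-identical alpha globin copies Hba1 and Hba2 can share reads, so their falls are not separate evidence.

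Genes outside these groups also stood among the extremes. The falls included Prima1, which anchors acetylcholinesterase (41.0 to 5.84 FPKM, log2 fold change -2.81, SE 0.62), Ros1, a receptor kinase (15.2 to 2.52), Abcc6, an efflux transporter (23.5 to 4.26), Chrd, the bone morphogenetic protein antagonist chordin (22.2 to 4.54), Garnl3 (26.5 to 5.46) and Zfp93 (8.10 to 1.69). The largest rises were mostly of genes of lower expression. Ttbk2, a tubulin kinase gene, rose from 1.26 to 20.1 FPKM (3.99, SE 1.21), MAMDC2 from 0.476 to 6.60, Tcp11l1 from 0.837 to 8.45 and Nkain4 from 3.03 to 14.8 FPKM. Gpr126, an adhesion receptor, rose from 7.94 to 29.6, Adra1d, an adrenergic receptor, from 2.91 to 8.54, Esm1, endocan, from 2.60 to 7.57 and Podn, podocan, from 2.75 to 8.01 FPKM. The SEs of MAMDC2 (3.79, SE 2.36) and Tcp11l1 (3.34, SE 1.74) were wide, and with a pseudocount of 1 FPKM the log2 fold changes of MAMDC2, Tcp11l1 and Ttbk2 were 2.36, 2.36 and 3.22.

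The most abundant genes did not pass. Rpl41 stood at 8209.8 and 7564 FPKM, the ferritin genes Fth1 at 6464 and 6153 and FTL1 at 3822 and 2319, Rps29 at 3908 and 3854, Atp5i at 3474 and 3132, Tpt1 at 3223 and 3329, Rpl38 at 3289 and 2843, Rpl35 at 3499 and 2580.5 and FXYD2, the sodium pump regulator, at 2736 and 3126 FPKM. Over 61 ribosomal protein genes none passed and the median was 0.02.

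Calls that set a value against 0 were of another kind. A group was listed at 0 in 304 of the 1130 calls, low salt in 260 and high salt in 44, and 303 of these gene models carried no symbol. They were short, with a median genomic span of 410.5 bases, against 30354 bases for tested gene models with a symbol. The highest on high salt was MSTRG.7710, at 41.0 FPKM, and the highest on low salt was MSTRG.29581, at 30.6 FPKM. A value listed at 0 may be a failed estimate, and no fold is given.

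Whether the calls followed tissue was described with classes taken from other libraries, kidney against circulating cells of SS/MCW rats at 7 weeks on LS. Of 6445 tested gene models called higher in kidney, 3.04% rose and 5.57% fell. Of 3705 called higher in circulating cells, 0.594% rose and 1.81% fell. The medians were near 0 in both classes, 0.05 and -0.01, but the spread differed. The 10th and 90th percentiles of the log2 fold change were -1.16 and 0.87 for kidney-high gene models and -0.69 and 0.47 for circulating-high ones. They were -1.34 and 0.85 for the 6796 tested gene models not called between the tissues, of which 0.986% rose and 2.60% fell. A wide spread was thus not particular to kidney-high gene models. The kidney-high gene models therefore held calls in both directions without a shift as a class.

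The levels of the called genes were then set beside kidney T cells of SS/MCW rats, which share no library with the SS/CRL groups. These came from LS and HS groups at 10 weeks and an LS group at 7 weeks, each of 4 pools, in tables normalized separately. Of 422 fallen genes with a symbol, 5 FPKM or more in either group and a value in all groups, 400 stood on low salt above all 3 SS/MCW groups, 94.8% of them against 31.9% of 9454 tested genes. Their median was 1.48 above the SS/MCW median on the log2 scale on low salt and 0.29 above it on high salt. On high salt 185 of the 422 lay within the SS/MCW range, 43.8% against 46.0% of tested genes. Above it lay 180 (42.7% against 26.1%) and below it 57 (13.5% against 27.8%). A fall was chosen by a low-salt value above the high-salt one, so its place above other groups is in part fixed by the choice. All 22 fallen proximal tubule transporters stood above every SS/MCW group on low salt. On high salt 13 of them (59.1%) still stood above every SS/MCW group, 9 lay within the SS/MCW range and none below it. Slc22a6 stood at 863 and 164 FPKM in SS/CRL rats on low and high salt and at 157, 129.6 and 145 FPKM in SS/MCW rats on low salt, on high salt and at 7 weeks. Slc22a12 stood at 479.7 and 102 against 106, 79.5 and 110.2 FPKM, and Slc34a3 at 116 and 17.3 against 6.15, 5.49 and 6.18 FPKM. The low-salt SS/CRL group was thus the highest of the 5 kidney groups for these 3 genes.

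The risen genes were less one-sided. Of 210 genes, 130 stood on low salt below all SS/MCW groups (61.9% against 34.4% of tested genes), and 129 stood on high salt above them (61.4% against 26.1%). These genes were chosen by a high-salt value above the low-salt one, so both shares are in part fixed by the choice. Their medians were -0.53 on low salt and 0.35 on high salt relative to SS/MCW. Pck1 stood at 364 and 1071 FPKM in SS/CRL rats and at 668, 417 and 429 FPKM in SS/MCW rats, so both SS/CRL values lay outside the SS/MCW range. Akr1b1 stood at 39.0 and 76.8 against 70.9, 64.3 and 42.8 FPKM. Ttbk2 stood at 1.26 and 20.1 against 2.14, 2.51 and 2.99 FPKM, with the high-salt SS/CRL group alone far above the rest.

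**Figure D4:**
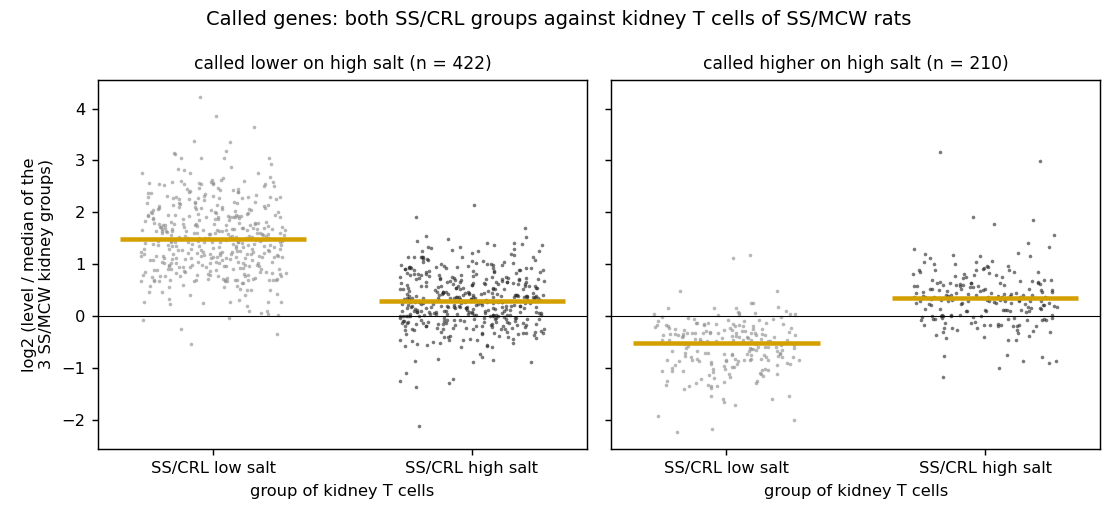
Each point is a called gene with a symbol, split into genes that fell (n = 422) and rose (n = 210), with its log2 level in the SS/CRL low-salt or high-salt group relative to the median of 3 SS/MCW kidney groups. The median of fallen genes is 1.48 on low salt and 0.29 on high salt, and that of risen genes -0.53 and 0.35.

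The salt effect was set beside that in kidney T cells of SS/MCW rats. There 84 of 19385 tested gene models passed, 0.433%. Over all 19385, 34 fell. Of 891 gene models called in SS/CRL rats and tested in SS/MCW rats, 10 fell and none rose in SS/MCW rats. Those of the 10 that did not also fall in SS/CRL rats rose there. Gene models that fell in both rat types numbered 7, and none rose in both. Those with a symbol were Slc6a19, with a log2 fold change of -2.85 in SS/MCW against -1.72 in SS/CRL rats, Hba2 (-3.28 against -2.17), Hbb,Hbb-b1 (-3.53 against -1.92) and Spink1,Spink3 (-1.61 against -0.86). List medians in SS/MCW and SS/CRL rats, for lists chosen after their values were seen, were as follows. They were close or of the same sign for amino acid metabolism (-0.82 and -0.63), gluconeogenesis (-0.67 and -0.65), drug metabolism (-0.54 and -0.39), brush border (-0.44 and -0.41) and red blood cell genes (-1.89 and -1.92). The apical list had -0.42 and -1.28. Medians of opposite sign included those of endothelial genes (-0.88 and 0.68) and T cell receptor and CD3 genes (1.35 and -0.20). T cell receptor signaling (0.84 and -0.32) and cytotoxic genes (1.51 and -0.41) also had them. So did matrix (-0.11 and 0.50), collecting duct principal cell (-0.08 and 0.53) and sodium and osmotic response genes (-0.02 and 0.46). No test of these medians was made. The difference of the effects was tested for each gene model by a normal z with Benjamini-Hochberg adjustment. None of 16429 passed (0%), with 109 at an unadjusted p under 0.05, or 0.663%. The z values had an SD of 0.61, below the 1 that SEs of the right size give, so SEs from the test statistic are wide here and the lack of a passing difference does not show equal effects. With SEs taken from the deposited p in place of the test statistic 60 passed, 0.365%, of which 13 were positive. Under those SEs Fmnl1 passed with a difference of -2.36, Dgka with -2.43 and Ptprc with -2.58, and on the other side Thbs2 with 2.80 and Mgp, a matrix protein gene, with 2.93. The fall of Slc22a6, -2.39 in SS/CRL and -0.28 in SS/MCW rats, was not shown to differ under either (difference -2.11, SE 1.19).

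In circulating T cells of SS/CRL rats 115 of 17169 tested gene models passed for salt, 0.67%. The difference of the effect between kidney and circulating cells passed for 4 of 11761 (0.034%) by the same test, and with SEs from the deposited p for 166 (1.41%). The 4 included Hba1, with a log2 fold change of -2.28 in kidney and 0.95 in circulating cells, a difference of -3.23 (SE 0.59), and likewise Hba2 and the model of Hbb and Hbb-b1. Globin transcripts were thus lower on high salt in kidney and higher in circulating cells. The fall of Prkcb differed from its value in circulating cells by -3.71 (SE 1.11) and passed when SEs came from the deposited p but not otherwise. Kidney and circulating libraries carry the same pool numbers in the labels, while the test treats them as independent. Whether they came from the same rats is not known.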

How the data were processed

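Labels' protocols name TRIzol extraction and a TruSeq RNA kit. Build rn5 and the tools Trim Galore 0.2.5, cutadapt, TopHat2 2.1.1, Cufflinks 2.2.1 and Cuffdiff are named, without roles, in the submitters' processing notes. The deposited tables hold FPKM, 1 value per group, computed by the authors and scaled within each table. Per the file headers they also hold a p-value, a q-value and the Cuffdiff test statistic, a score. The smallest deposited p-value is 5e-05. Of the deposited tables, 10 were used and the others were not used here. Nothing in the labels says how separately the 4 pools of a group were prepared, so p-values measure the spread between these samples, which may be technical. Depth per library is unknown.

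Groups follow the labels. Log2 fold changes were computed from FPKM. A call is q under 0.05 with status OK. Symbols were taken from the tables, 355 gene models carry more than 1, and 25 symbols had been turned into dates and were not used. The 47 lists held 1417 members, of which 1319 matched, 10 by a RefSeq synonym, and were described by counts and by medians over members with at least 1 FPKM in a group. The members and lists were chosen with earlier results of these data known. Named genes are list members (called ones first), the 12 largest called changes in each direction with a symbol and at least 5 FPKM, Cd3e, Cd4, Cd8a and Ptprc, the 10 most expressed genes, the top calls listed at 0 and the largest differences of effect. Some genes that this rule covers are counted but not reported here. The z test was run on simulated effects drawn with the same SEs that it used. That run cannot show whether the SEs fit the data. Alternatives were a stricter q, a normal p of the statistic, recentring, FPKM minimums, a pseudocount of 1 FPKM, FPKM from other tables and SEs from the deposited p. Counting only gene models with a symbol, and leaving out kidney-high ones, were chosen after seeing the data. Versions were matplotlib 3.10.9, scipy 1.17.1, numpy 2.4.6, pandas 2.3.3 and Python 3.11.15.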

Additional observations from a re-analysis of the deposited data

Results flagged for a closer look

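In 4 gene models the salt effect in SS/CRL kidney cells differed from that in SS/CRL circulating cells by the normal z test with Benjamini-Hochberg adjustment. The alpha globin genes Hba1 and Hba2 differed by -3.23 and -2.92 on the log2 scale and the model named Hbb,Hbb-b1 by -2.79, each lower on high salt in kidney and higher in circulating cells. All 3 also passed with SEs taken from the deposited p. Kidney and circulating libraries carry the same pool numbers, and the test treats them as independent. MSTRG.59259, which carries no symbol, differed by 0.998, with log2 fold changes of -0.22 in kidney and -1.22 in circulating cells, and did not pass with SEs from the deposited p.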

How the results depend on the processing

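Of 1130 calls, 752 held at q under 0.01, 400 of them falls. A normal p of the test statistic gave 17 gene models, all with the lower value on high salt, and after recentring 15, again all lower. The 17 are not a subset of the 1130 calls, because MSTRG.59259 was not called. Leaving out gene models listed at 0 left 240 rises. A log2 fold change of at least 1 in size left 466, of which 68 rises and 398 falls. Chosen after seeing the data, gene models with a symbol gave 644, of which 216 rises, and those not kidney-high gave 575, of which 304 rises and 271 falls. Of 132 recomputed list medians, 2 moved by 0.25 or more, both of red blood cell genes, to -1.35 with no minimum FPKM and -1.38 with a pseudocount of 1 FPKM. Of 290 recomputed log2 fold changes of 145 named genes none changed sign and 3 moved by over 1.5 times. With SEs from the deposited p, differences of effect numbered 60 against SS/MCW kidney and 166 against circulating cells. The cause of these shifts was not tested. No paired analysis was possible because the tables give 1 value per group and carry no pool numbers, and for the same reason no pool could be left out.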

Other observations

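Solute carriers as a family held falls beyond the transporter lists. Of 232 tested gene models with an Slc symbol 40 fell and 7 rose, with a median log2 fold change of -0.14. Over all gene models 3.07% fell and 2.44% rose, and among highly expressed ones 14.1% and 4.14%. Most of the fallen transporters already described are among the 40, so the counts overlap. Named after their values were seen, Slc6a13, a carrier of gamma-aminobutyric acid, fell from 19.4 to 4.75 FPKM, Slc28a1, a nucleoside carrier, from 63.5 to 18.3, and Slc5a11, an inositol carrier, from 30.1 to 8.23 FPKM. The urea transporter gene Slc14a1 rose from 9.74 to 17.4 FPKM, as did its relative Slc14a2. Of 13 tested claudin gene models 3 rose and none fell, and of 24 cytochrome P450 gene models 5 fell and none rose.

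None of 38 tested interferon-stimulated genes passed, with 29 of 39 above 0 and a median of 0.28, and none of 32 chemokine and cytokine genes or 31 proteasome genes passed. Of 20 circadian clock genes 1 fell, Per2, from 8.57 to 4.45 FPKM, and of 29 cell cycle genes 1 rose, Ccnd1, cyclin D1, from 53.5 to 93.2 FPKM. Of 572 called genes with a RefSeq chromosome 9 lay on another chromosome in the authors' gene models than in GRCr8, Aqp2 and Bgn among them.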
